A study of Homo sapiens with 12 samples.

Results

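Collagens and laminins are the main structural proteins of the extracellular matrix, and the genes described here are 38 of the 39 protein-coding genes of the measured table whose symbol is that of a collagen chain (COL, a number, A and a number) or of a laminin chain (LAMA, LAMB or LAMC and a number). They comprise 28 collagen and 10 laminin genes of 17013 genes in the table, 13611 of them protein coding. Expression was measured by mRNA-seq in HCC1806, a human triple-negative breast cancer cell line, in 12 libraries that form 4 groups of 3. Cells were transfected with non-targeting control siRNA (siNT) or with a pool of siRNAs against the kinase MLK4 (siMLK4, gene MAP3K21), and then received vehicle or 1 µM doxorubicin, a topoisomerase II poison, for 24 h. The labels name the vehicle DMSO, whereas the sequencing methods describe the cells without doxorubicin as left untreated, and the word of the labels is used here. All groups are thus transfected cells of 1 line, the siRNAs were used as a pool, and the methods describe the transfections as made in triplicate. Whether these were independent experiments is not given in the sources used here, so the p-values measure only the spread between these libraries.

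Each collagen molecule is a trimer of alpha chains, and each laminin is a cross-shaped trimer of an alpha, a beta and a gamma chain. Epithelial cells rest on a basement membrane in which a laminin polymer and a network of collagen IV are linked by nidogens and perlecan. Basal epithelial cells make laminin-332, with LAMA3 and LAMB3 as its alpha and beta chains, which binds integrins, whereas collagen XVII (COL17A1), a transmembrane collagen, anchors the cell at hemidesmosomes, and collagen VII (COL7A1) forms the anchoring fibrils beneath. Fibril-forming collagens such as collagen I and V are made mostly by stromal cells.

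LAMA3 and LAMB3 lie on different chromosomes (GENCODE 44, build GRCh38), with LAMA3 at chr18:23689453-23956222 on the plus strand and LAMB3 at chr1:209614870-209652425 on the minus strand. By contrast, COL4A1 at chr13:110148963-110307157 and COL4A2 at chr13:110305812-110513209, whose chains form the common collagen IV trimer, are transcribed away from each other, and their start sites in RefSeq are 126 bases apart. Because these chains carry most of what follows, the sequences that precede their starts are shown, from RefSeq on GRCh38.p14, all written 5′ to 3′ on the strand of the gene or, for the collagen IV pair, on the plus strand. In the collagen IV interval, chr13:110307158-110307283, the capitals mark CCAAT. In the 150 bases upstream of a LAMA3 start (chr18:23872870-23873019, plus strand) and of the LAMB3 start at position 209651374 (chr1:209651375-209651524, minus strand), the capitals mark TGACTCA or TGAGTCA, the letters of the AP-1 element, each the reverse complement of the other.
COL4A1-COL4A2 interval: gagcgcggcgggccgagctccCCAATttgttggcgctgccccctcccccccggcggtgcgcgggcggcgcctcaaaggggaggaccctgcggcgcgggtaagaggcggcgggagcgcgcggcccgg
LAMA3: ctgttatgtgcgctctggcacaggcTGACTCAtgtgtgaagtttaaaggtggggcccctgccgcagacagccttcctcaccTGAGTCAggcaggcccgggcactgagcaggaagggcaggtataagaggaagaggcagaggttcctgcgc
LAMB3: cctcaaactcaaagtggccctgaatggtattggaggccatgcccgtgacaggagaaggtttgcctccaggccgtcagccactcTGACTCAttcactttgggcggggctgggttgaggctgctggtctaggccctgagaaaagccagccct

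The LAMA3 elements begin 125 and 69 bases upstream of the start and the LAMB3 element 67 bases upstream. A RefSeq window was found for 30 of the 38 genes, with 40 windows in all. TGACTCA or TGAGTCA occurred in the 250 upstream bases of 2 of the 40 windows and of 4.2% of all 35116 windows, while CCAAT or its reverse complement ATTGG occurred in 10 of the 40 and in 32.01% of all windows. No match was found at the other LAMB3 starts, at positions 209652425 and 209652329. A match of letters is a description of the sequence and was not tested for binding.

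The libraries held 16759025 to 19302248 reads on the listed genes. Levels are given as normalized reads, that is reads divided by the size factor of the library. Of 56 collagen and laminin genes in GENCODE 44, 17 were not in the table, namely COL10A1, COL15A1, COL19A1, COL1A2, COL22A1, COL23A1, COL24A1, COL25A1, COL26A1, COL3A1, COL5A3, COL6A3, COL6A5, COL6A6, COL8A1, COL9A1 and LAMA1. Genes are in the table only where the highest of the 4 group means reaches 10.67 normalized reads. Of the 38 genes described, 23 had a mean of 100 or more normalized reads over all libraries and 7 had a mean under 20.

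In siNT cells with vehicle, the highest levels per kilobase of exon among the 38 genes belonged to chains of the epithelial basement membrane. LAMB3 stood at 5022 normalized reads per kilobase, LAMC1 at 1324, COL17A1 at 1089.7 and LAMA3 at 577. LAMA5, LAMB1, COL4A1, COL7A1, COL4A2 and COL6A1 followed, between 285 and 129 normalized reads per kilobase. The same 10 genes led when the longest transcript was used as the length, although the order among LAMA5, LAMB1, COL4A1, COL7A1 and COL4A2 then differed.

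The epithelial identity of the cells was checked with 9 markers, all of which were measured, with a summed level of 110447 normalized reads in siNT cells with vehicle and KRT8 as the most abundant gene. This sum was 77843 in siNT cells with doxorubicin, 98805 in siMLK4 cells with vehicle and 51718 in siMLK4 cells with doxorubicin. Of 7 fibroblast markers, DCN and POSTN were not in the table, and the other 5 summed to 242, 101, 302 and 102 normalized reads in the same order of groups, with LUM as the most abundant gene. Of 4 endothelial markers VWF alone was measured (25.1, 28.3, 47.5 and 51.6 normalized reads), with CDH5, KDR and PECAM1 not in the table, and of 4 leukocyte markers CD14 and PTPRC were measured (summed 16.9, 45.3, 28.6 and 54.7 normalized reads), without CD3E or CD68. In such bulk samples, fewer cells of a type and less RNA per cell cannot be told apart.

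To determine how MLK4 knock-down bears on these genes, siMLK4 cells were compared with siNT cells, first with vehicle. MAP3K21 itself fell from 632 ± 68.5 to 95.5 ± 7.31 normalized reads (SD, n = 3), a log2 fold change of -2.24 (SE 0.12), and with doxorubicin it fell from 795 to 115. With vehicle, LAMA3, LAMB3 and the transmembrane collagens COL13A1 and COL17A1 fell, while COL4A2, COL5A2, COL1A1, COL16A1 and LAMB4 rose. A gene was called when its adjusted p was below 0.01 and its log2 fold change exceeded 0.75 in size. Thus 9 of the 38 genes were called, or 23.7% against 5.65% of all genes tested, with 5 higher (2.51% of all genes were) and 4 lower (3.14% of all genes were). With an adjusted p below 0.05 as the only criterion, 21 were called, 17 higher and 4 lower, against 25.8% of all genes. The median over the 38 genes was 0.33 in log2 fold change, and 0.01 over all genes. Fold changes here are on the variance-stabilized log2 scale of the table, which understates changes of genes with few reads.

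LAMB3, the beta chain of laminin-332, fell under both treatments. Its levels were 27408, 21776 and 20826 normalized reads in siNT cells with vehicle and 11277, 12969 and 12490 in siMLK4 cells with vehicle. With doxorubicin they were 32975, 37061 and 29245 in siNT cells and 14537, 15349 and 13890 in siMLK4 cells. All siMLK4 libraries lay below all siNT libraries, with log2 fold changes of -0.92 (SE 0.13, adjusted p = 0.00021) with vehicle and -1.17 (SE 0.13, adjusted p = 3.4e-05) with doxorubicin.

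LAMA3, the alpha chain, varied more between libraries. It read 5843, 9153 and 10098 normalized reads in siNT cells with vehicle and 3910, 3543 and 1975 in siMLK4 cells with vehicle, and these groups did not overlap. Its log2 fold change with vehicle came to -1.42 (SE 0.26, adjusted p = 0.0015). When only the 6 libraries compared entered the fit, the adjusted p was 0.021 and the gene was no longer called. With doxorubicin LAMA3 read 5010, 7190 and 5975 normalized reads in siNT cells and 3472, 4713 and 2720 in siMLK4 cells, which did not overlap, and its log2 fold change of -0.75 (SE 0.26, adjusted p = 0.052) did not pass the test. With the replicate number as a block in a fit of these 6 libraries, the adjusted p was 3.7e-13, with 2 residual and 82.3 prior degrees of freedom, and the same fold change fell just short of the threshold, so the gene was not called there either.

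LAMC1, a widely used gamma chain, read 9072, 11297 and 13190 normalized reads in siNT cells with vehicle and 12156, 10387 and 7916 in siMLK4 cells with vehicle, and its log2 fold change of -0.14 did not pass the test under either treatment (SE 0.17, adjusted p = 0.57 with vehicle and 0.59 with doxorubicin). LAMA5, the alpha chain of laminin-511 and laminin-521, read 3702, 4454 and 4063 normalized reads in siNT cells with vehicle and 7224, 6010 and 5223 in siMLK4 cells with vehicle. These groups did not overlap, but the log2 fold change of 0.58 (SE 0.12, adjusted p = 0.0029) was below the fold threshold. With doxorubicin, LAMA5 rose from 1272, 1252 and 1145 normalized reads in siNT cells to 2187, 2271 and 2151 in siMLK4 cells (log2 fold change 0.82, SE 0.12, adjusted p = 0.00026).

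LAMB1, the common beta chain, read 4511, 5461 and 5458 normalized reads in siNT cells with vehicle and 5163, 4264 and 3968 in siMLK4 cells with vehicle, which overlapped. With doxorubicin it fell from 3584, 4756 and 4498 in siNT cells to 2099, 2125 and 2415 in siMLK4 cells, a log2 fold change of -0.93 (SE 0.14, adjusted p = 0.00027). LAMB4, a weakly expressed beta chain next to LAMB1 on chromosome 7, read 19.96, 19.7 and 28.1 normalized reads in siNT cells with vehicle and 105, 73.7 and 89.7 in siMLK4 cells with vehicle (log2 fold change 1.08, SE 0.13, adjusted p = 5.7e-05). Thus the LAMB4 mean was 3.97-fold higher with vehicle, whereas with doxorubicin its groups overlapped, at 3.69, 5.09 and 9.12 against 11.02, 4.17 and 9.07 normalized reads (log2 fold change 0.11, SE 0.13, adjusted p = 0.60).

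**Figure D1:**
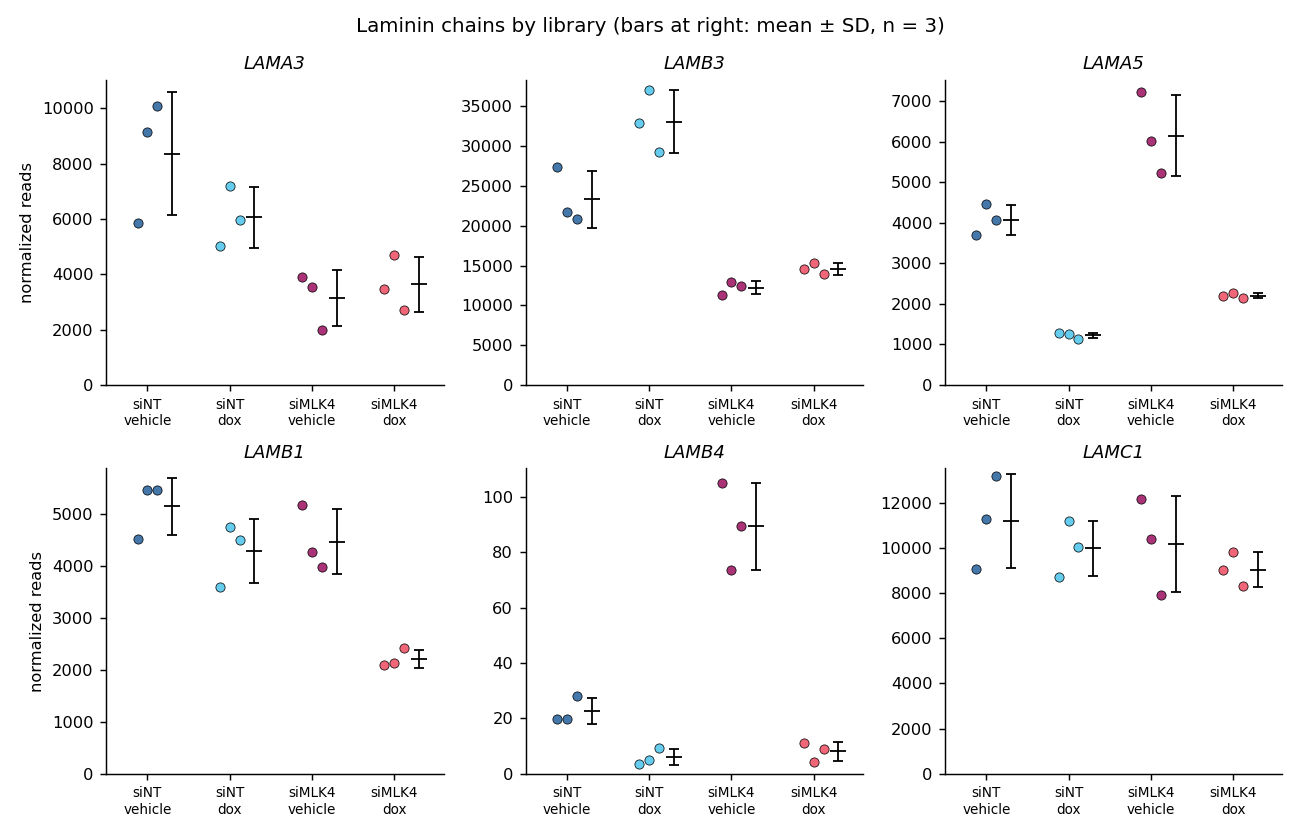
Normalized reads (y axis, linear from 0) of 6 laminin chains in each library (points) of the 4 groups (x axis), with the group mean and SD at the right of the points (n = 3). LAMB3 was lower in all siMLK4 libraries, LAMA5 was lower with doxorubicin, LAMB4 lay between 73.7 and 105 in siMLK4 cells with vehicle and at most at 28.1 elsewhere, and the 4 groups overlapped for LAMC1.

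Ratios between chains within a library are given as descriptions without a test. The ratio of LAMA3 to LAMA5 reads was 1.58 to 2.49 in siNT cells with vehicle and 0.38 to 0.59 in siMLK4 cells with vehicle. The ratio of LAMB3 to LAMB1 reads was 3.82 to 6.08 and 2.18 to 3.15 in the same groups, so that neither ratio overlapped between the siRNAs with vehicle. With doxorubicin, LAMB1 was lower in siMLK4 cells as well, and the LAMB3 to LAMB1 ratio overlapped, at 6.50 to 9.20 in siNT and 5.75 to 7.22 in siMLK4 cells.

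The transmembrane collagens were lower in siMLK4 cells as well. COL17A1 (chr10:104031286-104085880, minus strand) read 6447, 8026 and 8376 normalized reads in siNT cells with vehicle and 4453, 3789 and 3447 in siMLK4 cells with vehicle. With doxorubicin it read 4112, 4894 and 4328 in siNT cells and 1741, 2041 and 1541 in siMLK4 cells. Its log2 fold changes were -0.96 (SE 0.14, adjusted p = 0.00023) with vehicle and -1.30 (SE 0.14, adjusted p = 2.2e-05) with doxorubicin, and the siMLK4 libraries with doxorubicin lay below the libraries of the other 3 groups.

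COL13A1 (chr10:69801880-69964275, plus strand), a transmembrane collagen of cell adhesion sites and of the neuromuscular junction, had 214, 199 and 168 normalized reads in siNT cells with vehicle and 25.0, 25.9 and 20.5 in siMLK4 cells with vehicle, an 8.13-fold lower mean (log2 fold change -1.87, SE 0.11, adjusted p = 1.3e-07). With doxorubicin it had 90.4, 83.5 and 88.2 in siNT cells and 36.5, 36.7 and 31.8 in siMLK4 cells (log2 fold change -0.77, SE 0.11, adjusted p = 0.00019). The siMLK4 libraries were lower under both treatments. The latter call was lost, at a log2 fold change of -0.73, without siMLK4 doxorubicin replicate 3 and also when libraries were scaled by their total reads.

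Collagen IV chains differed within the shared locus. COL4A2 read 2098, 3149 and 2764 normalized reads in siNT cells with vehicle and 6763, 6206 and 4860 in siMLK4 cells with vehicle, and 2269, 2511 and 2469 against 5878, 6554 and 5346 with doxorubicin. It was thus higher in every siMLK4 library, with log2 fold changes of 1.14 (SE 0.15, adjusted p = 0.00011) and 1.27 (SE 0.15, adjusted p = 6e-05). COL4A1, its neighbour, read 2292, 3196 and 3146 in siNT cells with vehicle and 5243, 4620 and 3380 in siMLK4 cells with vehicle, and 3430, 4303 and 3795 against 4938, 5566 and 4748 with doxorubicin. Within each treatment no libraries overlapped between siNT and siMLK4, but the log2 fold changes of 0.60 (SE 0.16, adjusted p = 0.015) and 0.40 (SE 0.16, adjusted p = 0.09) were not called. Without siMLK4 vehicle replicate 3, the COL4A1 value with vehicle was 0.78 and was called.

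The ratio of COL4A2 to COL4A1 reads separated all 4 groups. It was 0.58 to 0.66 in siNT cells with doxorubicin, 0.88 to 0.99 in siNT cells with vehicle, 1.13 to 1.19 in siMLK4 cells with doxorubicin and 1.29 to 1.44 in siMLK4 cells with vehicle. The annotated ends of these genes overlap on opposite strands, and the methods state that reads were assigned by strand. COL4A5 and COL4A6 on chromosome X and COL4A3 and COL4A4 on chromosome 2 are likewise pairs transcribed away from each other. Between siMLK4 and siNT cells these 4 genes had log2 fold changes that did not pass the test, from -0.30 to 0.36 with vehicle and from -0.53 to 0.55 with doxorubicin.

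**Figure D2:**
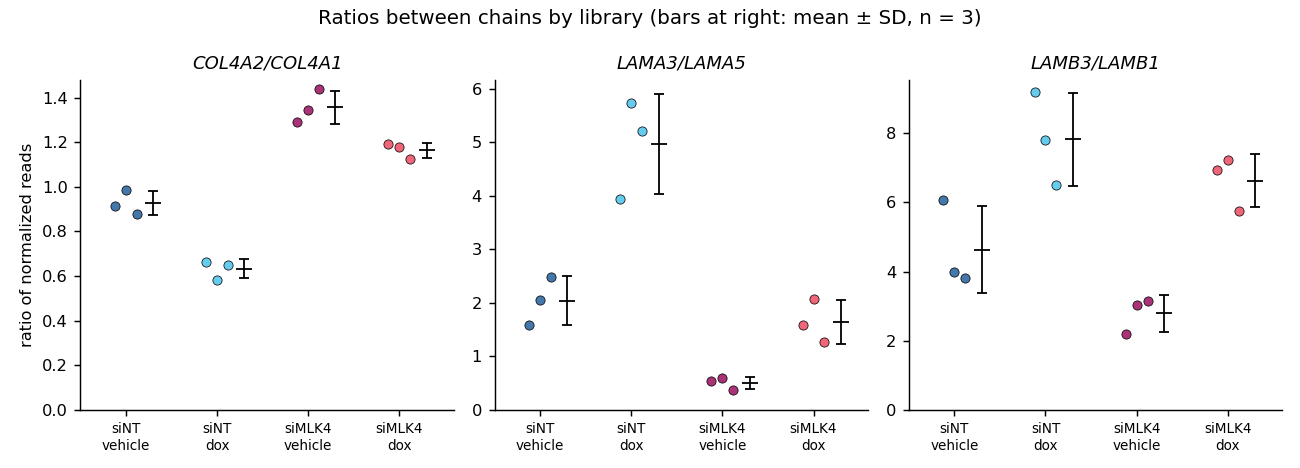
Ratio of the normalized reads of 2 chains (y axis, linear from 0) in each library (points) of the 4 groups (x axis), with the group mean and SD at the right (n = 3). COL4A2/COL4A1 did not overlap between any of the groups, and LAMA3/LAMA5 and LAMB3/LAMB1 were lowest in the 3 siMLK4 libraries with vehicle.

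Among the fibril-forming chains 2 of 7 were called higher in siMLK4 cells under each treatment, and among the fibril-associated chains 1 of 7, with none called lower in either list. Of all genes, 2.51% were called higher with vehicle and 2.66% with doxorubicin. All 7 fibril-forming chains had a positive log2 fold change with vehicle, as had 28 of the 38 genes and 8784 of all 17013 genes. Of these chains, COL11A1 and COL2A1 rest on few reads, with every group mean under 20 normalized reads. With vehicle COL2A1 had 2, 0 and 1 reads in siNT cells and 4, 8 and 2 in siMLK4 cells. The median of the 7 was 0.49, and COL1A1 and COL5A2 passed the test. With doxorubicin 6 of the 7 were positive. COL2A1 is among these, but it reaches the level filter of the table only through siMLK4 cells with doxorubicin and therefore had to differ. COL5A2, a chain of collagen V, which regulates fibril diameter, read 223, 261 and 323 normalized reads in siNT cells with vehicle and 680, 515 and 755 in siMLK4 cells with vehicle, a log2 fold change of 1.13 (SE 0.17, adjusted p = 0.00026). With doxorubicin it read 96.0, 126 and 139 in siNT cells and 225, 234 and 312 in siMLK4 cells (log2 fold change 0.86, SE 0.17, adjusted p = 0.002), and no siMLK4 library overlapped a siNT library of the same treatment. This latter value was 0.73 without siMLK4 doxorubicin replicate 3 and 0.75 (adjusted p = 0.011) without siNT doxorubicin replicate 1, and was then not called.

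COL1A1, a chain of collagen I, had means of 286 and 529 normalized reads with vehicle (log2 fold change 0.78, SE 0.12, adjusted p = 0.00041), while the partner chain COL1A2 was not in the table. The call was lost without siMLK4 vehicle replicate 3 (0.72) or without siNT vehicle replicate 3 (0.74). COL5A1, the partner of COL5A2, rose with doxorubicin from a mean of 323 to 604 (log2 fold change 0.81, SE 0.14, adjusted p = 0.0011). This call was lost without siNT doxorubicin replicate 3 (0.70), and with vehicle the change of 0.64 was called only without siMLK4 vehicle replicate 3 (0.78) or with scaling by library totals (0.76), among the settings tried with the same threshold.

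Among the fibril-associated collagens, COL16A1 rose with vehicle from 360, 356 and 314 normalized reads in siNT cells to 781, 736 and 785 in siMLK4 cells (log2 fold change 1.05, SE 0.12, adjusted p = 2.9e-05). With doxorubicin it read 295, 258 and 272 against 290, 273 and 383, and the groups overlapped. COL9A2, a chain of the cartilage collagen IX, rose with doxorubicin from a mean of 54.0 to 131 (log2 fold change 0.83, SE 0.14, adjusted p = 0.0009), a call lost without siMLK4 doxorubicin replicate 3 (0.68). With vehicle its log2 fold change of 0.63 (SE 0.14, adjusted p = 0.0054) was below the fold threshold, and it was called with voom (0.84) and on log2 of normalized reads plus 1 (0.84). COL18A1, a basement membrane collagen and the source of endostatin, rose with doxorubicin from 218, 224 and 147 in siNT cells to 369, 471 and 339 in siMLK4 cells (log2 fold change 0.85, SE 0.16, adjusted p = 0.0016). The COL18A1 value was 0.73 without siMLK4 doxorubicin replicate 2 and 0.70 without siNT doxorubicin replicate 3, both at an adjusted p of 0.01 and not called.

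With doxorubicin, 10 of the 38 genes were called between siMLK4 and siNT cells, or 26.3% against 5.58% of all genes tested, with 6 higher (2.66% of all genes were) and 4 lower (2.93% of all genes were). An adjusted p below 0.05 alone called 18, against 24.8% of all genes. The medians in log2 fold change were 0.13 over the 38 genes and 0.02 over all genes. COL13A1, COL17A1, COL4A2, COL5A2 and LAMB3 were called in the same direction under both treatments. How many of all genes were is not given here, so this overlap has no background beside it. Libraries of siMLK4 and siNT cells did not overlap for 65.8% of the 38 genes with vehicle, with 21 higher and 4 lower, and for 37.8% of all genes. With doxorubicin these shares were 55.3% and 43.9%.

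**Figure D3:**
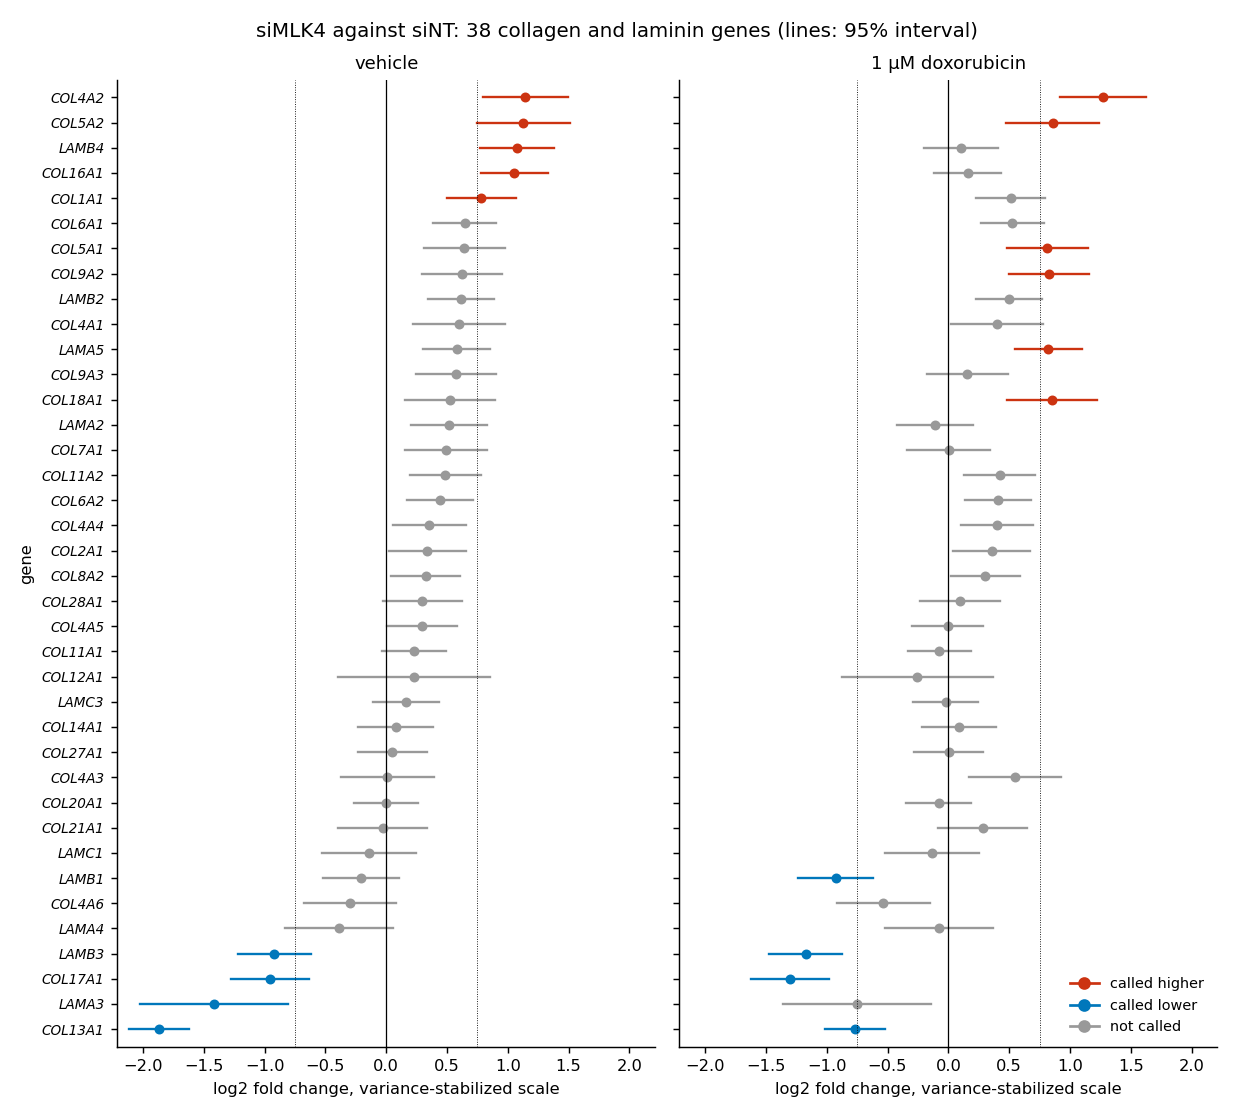
Log2 fold change of siMLK4 against siNT cells (x axis, variance-stabilized scale) for the 38 genes (y axis, in the order of the values with vehicle), with 95% intervals from limma, with vehicle (left) and 1 µM doxorubicin (right). Colours mark genes called higher or lower and dotted lines the fold threshold of 0.75: 5 were called higher and 4 lower with vehicle, and 6 and 4 with doxorubicin.

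Markers of epithelial cells moved in part. KRT14, a keratin of basal cells, fell in siMLK4 cells from a mean of 6001 to 2870 normalized reads with vehicle and from 2461 to 996 with doxorubicin, and KRT6A fell by 1.19 and 1.03 on the log2 scale. KRT5, the partner of KRT14, had log2 fold changes of 0.64 with vehicle and -0.32 with doxorubicin and was not called. Of the 9 epithelial markers, 2 were called with vehicle (3.14% of all genes were lower) and 3 with doxorubicin (2.93%), all lower. Their part in the collagen and laminin results was not tested. LUM, the most abundant fibroblast marker, read 138 normalized reads in siNT and 190 in siMLK4 cells with vehicle (log2 fold change 0.36, SE 0.15, adjusted p = 0.10).

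To determine the response to the drug, cells with doxorubicin were compared with vehicle cells of the same siRNA. In siNT cells, LAMA5, COL18A1, COL5A2, COL13A1 and COL17A1 fell, and the weakly expressed COL28A1, COL20A1 and COL4A3 rose. These 8 calls are 21.1% of the 38 genes, against 22.7% of all genes tested, so the share was near the background. With an adjusted p below 0.05 alone, 24 were called in siNT cells, against 57.3% of all genes, and 25 in siMLK4 cells, against 57.9%. In siMLK4 cells 13 genes were called, or 34.2% against 23.2% of all genes. Of these, 3 were higher (12.6% of all genes were) and 10 lower (10.6% of all genes were). The higher ones were COL20A1, COL28A1 and COL4A3, which had to differ, as described below. On log2 of normalized reads plus 1 the number in siMLK4 cells was 17 (44.7%, against 32.5% of all genes). At a mean of at least 50 normalized reads it was 8 of 27 (29.6%, against 23.7%). The median log2 fold changes of the 38 genes were -0.10 and -0.16, against 0.00 and 0.02 over all genes. The number called in siNT cells depended on the scale, with 16 on log2 of normalized reads plus 1 (42.1%, against 32.9% of all genes) and 5 of 27 among genes with a mean of at least 50 normalized reads (18.5%, against 24%), since the 3 that rose lie below that level. When libraries were scaled by total reads, which shifted the median of all genes by 0.18 in siNT and 0.14 in siMLK4 cells, the calls were 6 higher and 2 lower in siNT cells, and 7 higher and 9 lower in siMLK4 cells. With this scaling 16.7% of all genes were called higher and 6.43% lower in siNT cells, and 17% and 7.49% in siMLK4 cells.

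LAMA5 gave the lowest log2 fold change of the 38 genes in siNT cells on the variance-stabilized scale, whereas LAMB4 was lower with voom (-1.92, and -1.73 for LAMA5). Its vehicle libraries read 3702 to 4454 and its doxorubicin libraries 1145 to 1272 normalized reads, a 3.33-fold lower mean (log2 fold change -1.69, SE 0.12, adjusted p = 1.1e-07). In siMLK4 cells it fell from 5223 to 7224 normalized reads with vehicle to 2151 to 2271 with doxorubicin (log2 fold change -1.45, SE 0.12, adjusted p = 4.8e-07). The siMLK4 vehicle libraries were the highest and the siNT doxorubicin libraries the lowest of the 4 groups, without overlap.

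LAMB3 and LAMA3 did not follow LAMA5. LAMB3 libraries of siNT cells lay above those with vehicle after doxorubicin, but the log2 fold change of 0.51 (SE 0.13, adjusted p = 0.0045) was below the threshold, and in siMLK4 cells it was 0.25 (SE 0.13, adjusted p = 0.11). LAMA3 had log2 fold changes of -0.44 in siNT and 0.23 in siMLK4 cells, and its libraries overlapped. Consequently the ratio of LAMA3 to LAMA5 reads was 3.94 to 5.74 in siNT cells with doxorubicin, above its range with vehicle, and 1.64 ± 0.41 (SD, n = 3) in siMLK4 cells with doxorubicin. LAMB1 fell in siMLK4 cells, with a log2 fold change of -0.99 (SE 0.14, adjusted p = 3e-05), and had -0.27 (SE 0.14, adjusted p = 0.11) in siNT cells. LAMB4 fell in siMLK4 cells to an 11.1-fold lower mean (log2 fold change -1.58, SE 0.13, adjusted p = 5.1e-07). In siNT cells the LAMB4 log2 fold change of -0.61 was below the threshold, whereas it was called with voom (-1.92) and on log2 of normalized reads plus 1 (-1.82).

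The collagens of the hemidesmosome and the anchoring fibril were lower with the drug. COL17A1 had a log2 fold change of -1.11 (SE 0.14, adjusted p = 1.4e-05) in siMLK4 cells and -0.76 (SE 0.14, adjusted p = 0.00033) in siNT cells. The value in siNT cells sat close to the threshold and was lost without siNT doxorubicin replicate 1 (-0.71) or 3 (-0.75), without siNT vehicle replicate 2 (-0.72) or 3 (-0.69), and with scaling by library totals (-0.53). COL7A1 read 2089, 1932 and 1356 normalized reads in siNT cells with vehicle and 1234, 1287 and 976 with doxorubicin, and 2540, 2638 and 2334 against 1118, 1160 and 1202 in siMLK4 cells. Neither pair of groups overlapped. COL7A1 had a log2 fold change of -1.07 (SE 0.15, adjusted p = 2.9e-05) in siMLK4 cells, and the -0.59 (SE 0.15, adjusted p = 0.0036) in siNT cells was called only without siNT vehicle replicate 3 (-0.77) among the settings tried with the same threshold.

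**Figure D4:**
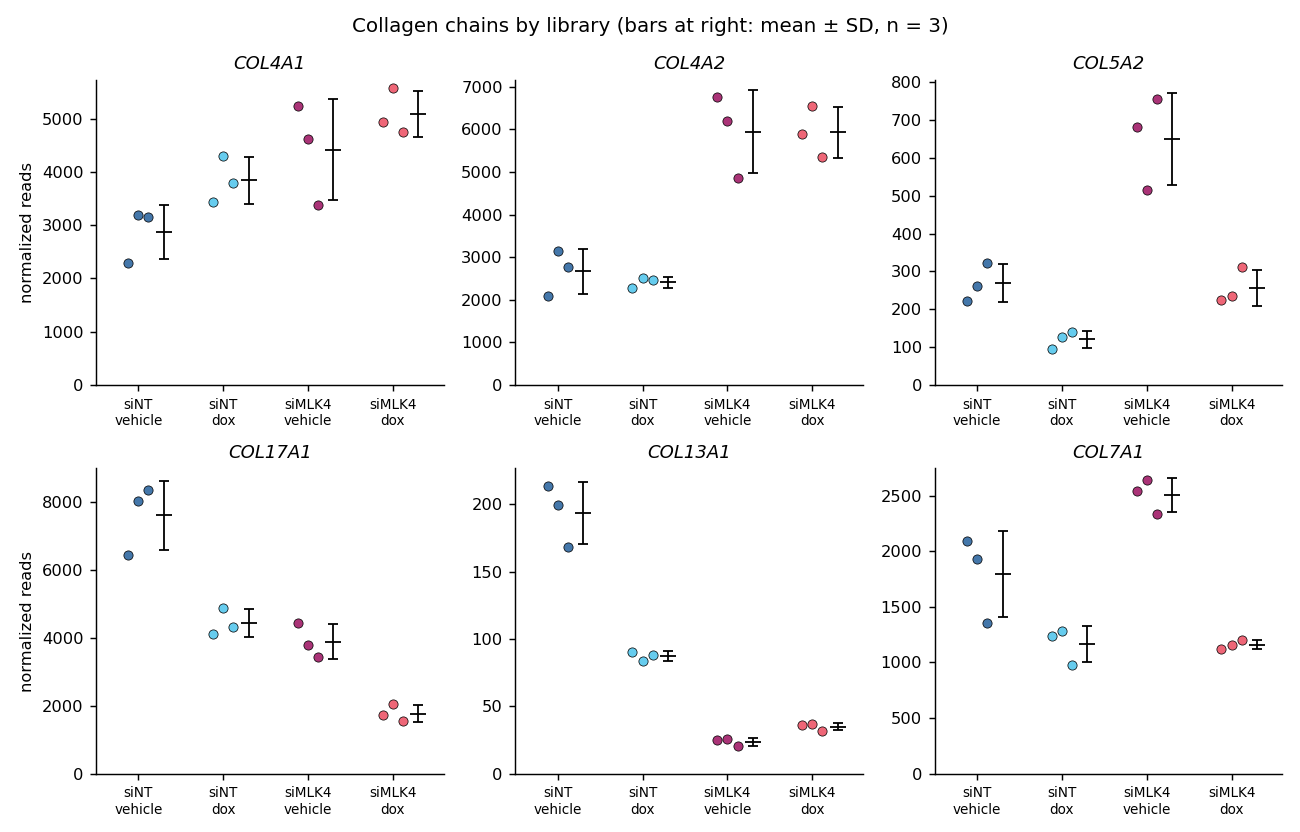
Normalized reads (y axis, linear from 0) of 6 collagen chains in each library (points) of the 4 groups (x axis), with the group mean and SD at the right (n = 3). COL4A2 was higher in all siMLK4 libraries, COL17A1 and COL5A2 were lower with doxorubicin under either siRNA, and COL13A1 lay between 20.5 and 36.7 in the siMLK4 libraries and between 83.5 and 214 in the siNT libraries.

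COL18A1 and COL5A2 fell with doxorubicin under both siRNAs. COL18A1 read 554, 629 and 420 normalized reads in siNT cells with vehicle and 778, 800 and 764 in siMLK4 cells with vehicle. Against the doxorubicin values given above, its log2 fold changes were -1.25 (SE 0.16, adjusted p = 1.8e-05) in siNT and -0.92 (SE 0.16, adjusted p = 0.00025) in siMLK4 cells, the latter -0.75 and not called with scaling by library totals. COL5A2 had -0.91 (SE 0.17, adjusted p = 0.00034) in siNT cells, where it was -0.72 and not called with library totals, and -1.18 (SE 0.17, adjusted p = 3.7e-05) in siMLK4 cells. In siMLK4 cells COL16A1 (-1.17, SE 0.12), COL9A3 (-1.03, SE 0.14) and COL4A6 (-0.92, SE 0.16) also fell. In siNT cells the same genes had -0.28, -0.62 and -0.68. COL4A6 was called there without siNT doxorubicin replicate 2 or siNT vehicle replicate 1 (-0.79 in both), and COL9A3 with voom (-1.43) and on log2 of normalized reads plus 1 (-1.39).

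COL20A1, COL28A1 and COL4A3 rose with doxorubicin in both backgrounds from low levels, at most 17.0 normalized reads in a vehicle library. COL20A1 read 0, 1.04 and 0 normalized reads in siNT cells with vehicle and 23.1, 23.4 and 17.2 with doxorubicin, which is at least 6.37-fold higher against a floor of 3 reads per library. In siMLK4 cells it read 1.00, 0 and 0 and then 17.8, 19.2 and 18.1, at least 5.97-fold higher. These genes pass the level filter of the table only through the doxorubicin libraries and therefore had to differ. COL14A1 passes it only through siMLK4 cells with doxorubicin (mean 11.7 normalized reads, and 9.7 in siNT cells) and had to differ in siMLK4 cells. It was at least 2.91-fold higher with doxorubicin in siNT and 3.81-fold in siMLK4 cells (log2 fold changes 0.56 and 0.57, not called).

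COL28A1, a collagen related to collagen VI, read 4.70, 3.11 and 3.37 normalized reads in siNT cells with vehicle and 50.8, 55.0 and 30.4 with doxorubicin, and 17.0, 4.98 and 7.57 against 49.2, 52.5 and 49.0 in siMLK4 cells. COL4A3, a chain of the kidney collagen IV network, read 2.35, 1.04 and 3.37 against 26.8, 20.4 and 11.2 in siNT cells, at least 5.82-fold higher, and 2.00, 0.996 and 4.32 against 44.1, 64.2 and 26.3 in siMLK4 cells. None of these groups overlapped. The COL4A3 call in siNT cells (log2 fold change 0.76, SE 0.16, adjusted p = 0.0013) was lost without siNT doxorubicin replicate 1 (0.66) or 2 (0.74) or without siNT vehicle replicate 2 (0.70).

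**Figure D5:**
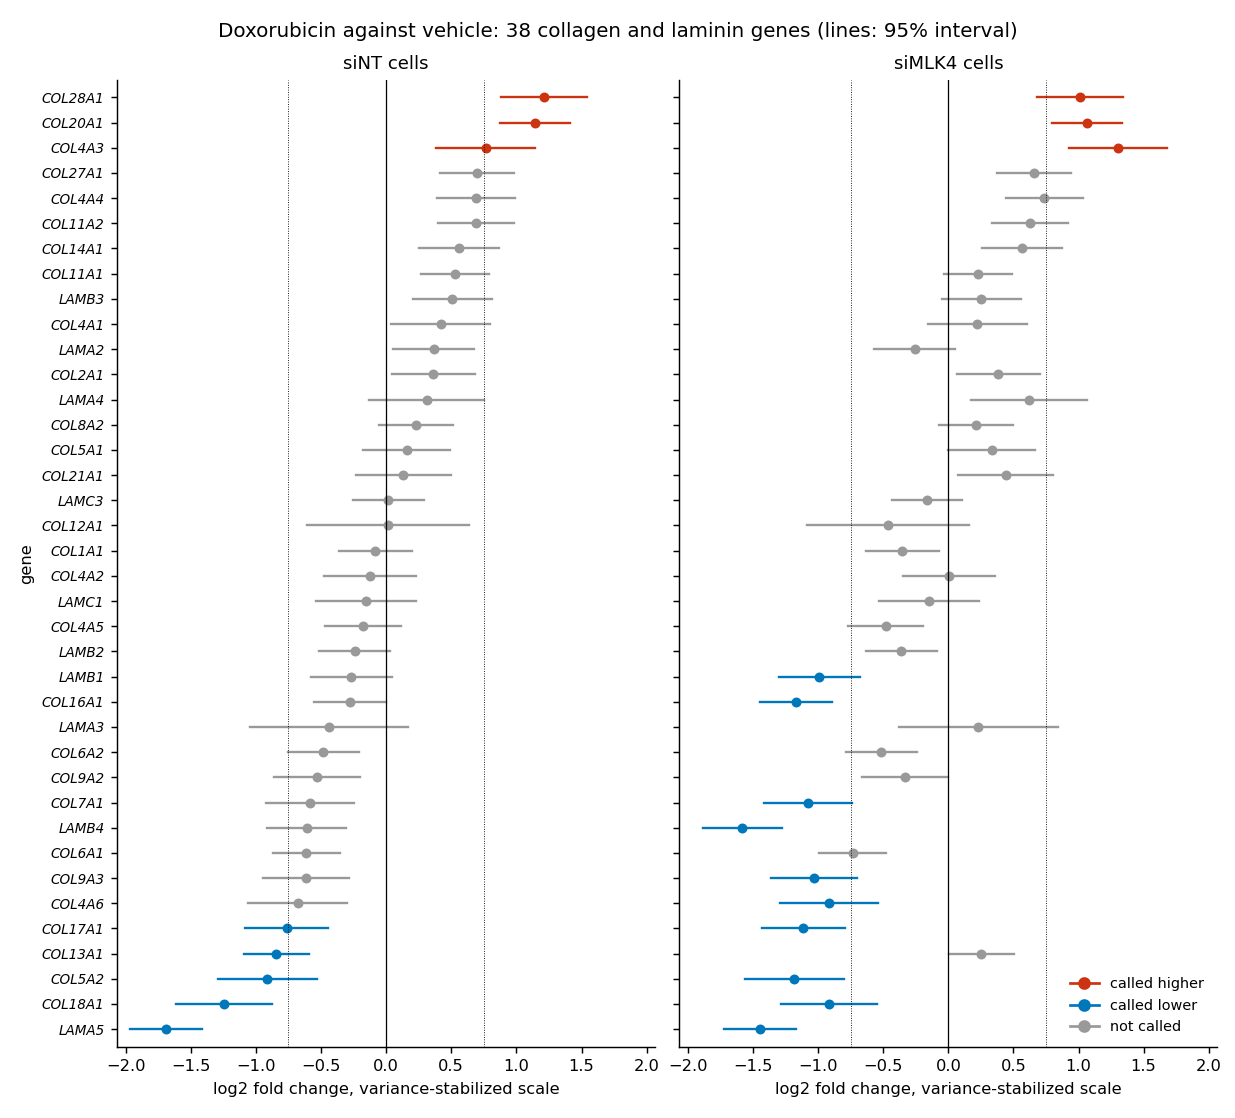
Log2 fold change of doxorubicin against vehicle (x axis, variance-stabilized scale) for the 38 genes (y axis, in the order of the values in siNT cells), with 95% intervals from limma, in siNT (left) and siMLK4 cells (right). Colours mark genes called higher or lower and dotted lines the fold threshold of 0.75: 3 were called higher and 5 lower in siNT cells, and 3 and 10 in siMLK4 cells.

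Both sets of calls shared 7 genes with the same direction, among them COL20A1, COL28A1 and COL4A3, which had to differ. The share of all genes called alike in both is not given here, so this overlap is not set against a background. The difference between the 2 responses was tested as an interaction, which called 1 of the 38 genes (2.63%), a higher one, against 0.276% of all genes tested in either direction and 0.0999% higher. An adjusted p below 0.05 alone called 3 of the 38 genes and 1.2% of all genes. This was COL13A1, which fell with doxorubicin in siNT cells (log2 fold change -0.84, SE 0.11, adjusted p = 1.6e-05) and had 0.25 (SE 0.11, adjusted p = 0.054) in siMLK4 cells, with a difference of 1.10 (SE 0.15, adjusted p = 0.0043). The difference lay between 1.04 and 1.12 in the fits without 1 library that lost the call, which was kept only without replicate 3 of siNT vehicle, siMLK4 vehicle or siMLK4 doxorubicin. With voom the adjusted p was 0.012. The fall of COL13A1 in siNT cells was -0.66 and not called with scaling by library totals. The interaction of COL16A1 was -0.89 (SE 0.17, adjusted p = 0.02), called without siMLK4 doxorubicin replicate 3 (-1.02), and that of LAMB4 was -0.97 (SE 0.19, adjusted p = 0.022).

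With doxorubicin 5 of 9 epithelial markers fell in each background (10.6% of all genes did in each), namely KRT14, KRT18, KRT5, KRT6A and TP63, with log2 fold changes from -1.18 to -1.60 in siNT cells. LUM, the most abundant fibroblast marker, fell in siNT cells (138 with vehicle, 21.1 normalized reads with doxorubicin) and in siMLK4 cells (190 and 16.5), while PDGFRA rose (2.29 and 24.7, then 2.42 and 33.1). PDGFRA passes the level filter of the table only through its doxorubicin libraries and therefore had to differ. LUM and PDGFRA are 2 of the 5 fibroblast markers measured (40% called in each background, against 22.7% and 23.2% of all genes). Of the 2 leukocyte markers measured, PTPRC was called higher in siMLK4 cells (log2 fold change 0.84). In siNT cells PTPRC had 0.59 and was not called. PTPRC too passes the level filter only through its doxorubicin libraries and therefore had to differ. The part of these markers in the results on collagens and laminins was not tested.

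The other components of the same matrix were examined from lists of genes. Of 33 genes that hydroxylate, fold, secrete or crosslink collagen, 30 were measured. In siNT cells with doxorubicin 4 rose and 5 fell, and in siMLK4 cells 5 rose and 3 fell. COLGALT2, a collagen galactosyltransferase counted as higher in both, had 0 reads in every vehicle library and is in the table only through the libraries with doxorubicin, so it had to differ. The shares called, 30% and 26.7%, were near those of all genes, 22.7% and 23.2%. PLOD2, a lysyl hydroxylase, rose from a mean of 899 normalized reads to 2638 in siNT cells and, in siMLK4 cells, from 864 to 2079.9, whereas CRTAP, a subunit of the prolyl 3-hydroxylase complex, fell by 1.65 and 1.43 on the log2 scale. In siMLK4 against siNT cells 2 fell with vehicle (6.67% called, 5.65% of all genes), P4HA1 (-0.92), a catalytic subunit of prolyl 4-hydroxylase, and PCOLCE2 (-0.88), an enhancer of procollagen processing. With doxorubicin both fell (-0.78 and -1.04), and LOX, which crosslinks collagen (1.14), and PCOLCE (0.76) rose, so that 13.3% were called against 5.58% of all genes.

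Of 19 other basement membrane genes 15 were measured. NID2, a nidogen that links laminin to collagen IV, fell in siMLK4 cells by 1.67 with vehicle and by 1.45 with doxorubicin on the log2 scale. FREM2 (1.55), FBLN2 (1.07) and HMCN1 (3.32-fold in mean level) rose with vehicle, so that 3 were higher and 1 lower (26.7% called, 5.65% of all genes), and with doxorubicin 3 were higher and 2 lower (33.3%, 5.58% of all genes). One of these 2, SMOC1, reaches the level filter only through siNT cells with doxorubicin and therefore had to differ. Doxorubicin gave 4 higher and 2 lower in siNT cells (40% called, 22.7% of all genes) and 4 higher and 3 lower in siMLK4 cells (46.7%, 23.2% of all genes). NTN1, a laminin-related netrin, had log2 fold changes of 1.87 and 2.29. NTN1 in both backgrounds and SMOC1 in siNT cells are among these higher genes, but they pass the level filter only through the libraries with doxorubicin and therefore had to differ.

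Among 16 genes for receptors of laminin and collagen, 14 were measured. ITGA2, the alpha chain of a collagen receptor, fell in siMLK4 cells by 2.57 with vehicle and by 2.44 with doxorubicin on the log2 scale, and its partner ITGB1 fell by 0.89 and 0.85. ITGA6, the alpha chain of the laminin-332 receptor of hemidesmosomes, fell by 0.84 with vehicle. BCAM, a receptor for LAMA5-containing laminins, rose by 1.46 and 1.06, so that 1 rose and 3 fell with vehicle and 2 rose and 2 fell with doxorubicin (28.6% called in each, 5.65% and 5.58% of all genes). With the drug 2 rose and 7 fell in siNT cells (64.3% called, 22.7% of all genes) and 3 rose and 4 fell in siMLK4 cells (50% called, 23.2% of all genes), including ITGB4, the partner of ITGA6, with log2 fold changes of -1.68 and -1.20.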

How the data were processed

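mRNA-seq values of 12 HCC1806 libraries were taken as deposited by the authors, on a variance-stabilized log2 scale. Poly(A) RNA was sequenced in paired ends after a KAPA RNA HyperPrep library preparation. The submitters' processing notes name Trimmomatic 0.39, HISAT2, HTSeq 0.6.0, DESeq2 1.26.0 and hg19, whereas the study's methods give GRCh38, removal of optical duplicates and stranded counting. The file holds gene IDs only, so the build could not be settled from it. Coordinates are from GENCODE 44, which named 16957 of the 17013 genes, and sequences from RefSeq, both on GRCh38.

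The transformation was inverted exactly, which returned whole reads for 100% of the values of each library, within a tolerance of 0.05, and size factors from 0.852 to 1.199. Ratios, levels and floors (3 reads) rest on these reads and cover counting error only. Replicate libraries differed by more than sampling noise in every group. Differential expression was tested in R 4.3.3 with limma 3.58.1 (lmFit and eBayes with a variance trend, 4 group means, all 12 libraries, 8 residual degrees of freedom), with Benjamini-Hochberg adjustment of the p-values across the 17013 genes. The call threshold was an adjusted p of 0.01 together with a log2 fold change of 0.75 in size. On simulated data, 97% of 200 changed genes of the comparison of doxorubicin with vehicle in siNT cells (17013 genes, absolute log2 fold change 1.5) were recovered, and 84% of 100 changed genes of the interaction, with 1 false call. limma-voom was run on the recovered reads as an alternative.

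Genes were chosen by symbol, 1 of the 39 is not reported here and is left out of every count of these genes, and the genes named with fold changes were those called in at least 1 of the 5 contrasts and, called or not, LAMA3, LAMB3, COL4A1, COL4A2, COL7A1 and COL17A1. Library values are given for these chains and for genes called in 2 or more contrasts, and from the other lists at most 4 called genes per list and contrast. Some values of other genes, such as COL14A1, COL4A4, COL4A5, LAMC1 and the markers, were added after they were seen. The genes, lists and tests were chosen with earlier results of these data known. Replicate numbers were checked for pairing by the correlation of deviations from the group means. In siNT cells they were 0.46, 0.11 and 0.20 between the treatments, and with doxorubicin they were 0.19, 0.52 and 0.56 between the siRNAs. All of these are positive but some are weak, so any pairing of these libraries rests on the data alone. In siMLK4 cells they were -0.08, 0.18 and 0.34 between the treatments. No sample was left out.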

Additional observations from a re-analysis of the deposited data

Results flagged for a closer look

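The response of COL13A1 to doxorubicin differed between siNT and siMLK4 cells by 1.10 on the log2 scale in the interaction test. This call was lost with voom and in most fits without 1 library, as given above. All 3 siNT libraries with doxorubicin lay below those with vehicle, and all 3 siMLK4 libraries with doxorubicin lay above those with vehicle, at 31.8 to 36.7 against 20.5 to 25.9 normalized reads.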

How the results depend on the processing

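The numbers of the 38 genes called changed by over 1.5 times under few settings. With an adjusted p below 0.05 alone they were 24 and 25 for doxorubicin in siNT and siMLK4 cells, 21 and 18 for siMLK4 with vehicle and with doxorubicin, and 3 for the interaction. For doxorubicin in siNT cells, 5 of 28 were called with at least 10 reads in every library (17.9%, against 22.1% of all genes). At a mean of at least 50 normalized reads 5 of 27 were called (18.5%, against 24%). On log2 of normalized reads plus 1 and with voom 16 were called (42.1% in each, against 32.9% and 31.8%). In siMLK4 cells 8 of 27 were called at a mean of at least 50 (29.6%, against 23.7%). Voom called 0 of the 38 genes for the interaction, with an adjusted p of 0.012 for COL13A1. Without 1 library at a time, the counts were 6 to 9 and 13 to 15 for doxorubicin in siNT and in siMLK4 cells. For siMLK4 with vehicle and with doxorubicin they were 8 to 10 and 7 to 10, and for the interaction 0 to 2. The shares of all genes in these fits are not given here. No called value was reversed under the alternatives run. The 7 genes with a mean under 20 normalized reads rest on few reads, and their fold changes are understated on this scale.

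With the replicate number as a block over all 12 libraries, no call of the 38 genes changed. The block was also fitted to only the 2 groups compared, an alternative added after seeing the data. No call of the 38 genes changed then in the 2 comparisons whose correlations were all positive. That latter fit added HMCN1 (log2 fold change 0.82) to the basement membrane genes called higher in siMLK4 cells with doxorubicin. Between siNT and siMLK4 cells with vehicle, equally numbered libraries did not deviate together (correlations of -0.72, 0.32 and -0.52) and share only a number, and the block fitted to these 6 libraries called 0 of the 38 genes and 0 of all 17013 genes, against 9 and 961 without it. The lowest adjusted p among the 38 genes was then 0.034.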
